A study of Homo sapiens with 60 samples.

Results

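SW1783 is an established human astrocytoma line. Here its libraries treated for 24 h with the ethanol extract of Guibi-tang at the high dose (500 µg/mL, 3 libraries) were compared with those treated for 24 h with the ethanol extract of Polygalae Radix at the high dose (30 µg/mL, 2 libraries), 5 of the 60 libraries of the series. A gene counted as kept only where it was called between the 2 high-dose groups and also between their changes from low to high dose, with the same sign both times; 763 of 19366 tested genes met this (3.94%). The low doses were 20 µg/mL of Guibi-tang (3 libraries) and 1.2 µg/mL of Polygalae Radix (2 libraries). The second condition was set because the extracts belong to different library sets, numbered 13 and 11 in the library names. A difference between sets that is alike at every dose cancels in it. The vehicle group (3 libraries) received 0.1% DMSO by the sample records, while the series text gives another share. The doses of the 2 extracts differ in mass at every step, because the series text lowers the dose of the more growth-inhibiting extracts, so the comparison is of the labelled high doses and not of equal amounts.

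Guibi-tang is a decoction of traditional East Asian medicine made from many herbs and used for fatigue, poor memory and poor sleep. Polygalae Radix, the root of Polygala, is in textbooks one of its ingredients, as is Aucklandiae Radix, the root of Aucklandia; these roles come from the textbook recipe and not from the labels. Polygala root is known for its saponins, and Aucklandia root for sesquiterpene lactones, electrophiles that react with thiol groups. Cells answer electrophiles through the transcription factor NRF2, which turns on heme oxygenase and other protective enzymes.

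The 5 high-dose libraries held between 19031094 and 28822041 expected counts. Mitochondrially encoded genes took 19.2% and 11.7% of the counts in the 2 Polygalae Radix libraries and a mean of 8.79% ± 0.849 (SD, n = 3) in the Guibi-tang libraries. Of 16 astrocyte and glioma markers, 10 were expressed enough to be tested, among them VIM, CHI3L1 and SLC1A3, while GFAP, S100B, AQP4, ALDH1L1, SOX2 and FABP7 were not. Whether the replicates of a group came from separate cultures is not stated, so every p-value measures only a spread between libraries. In the main fit that spread was estimated over all 60 libraries of the series and not from the 5 compared ones alone. Levels are given as CPM, counts scaled to a common library size, and all folds and adjusted p-values come from 1 edgeR fit.

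Between the high doses 2483 genes were called, 12.8% of those tested, with 1348 higher in Guibi-tang (6.96%) and 1135 lower (5.86%). The difference of the 2 extracts' changes was called for 790 genes (4.08%), 467 higher (2.41%) and 323 lower (1.67%). Both conditions together kept 453 genes higher in Guibi-tang (2.34% of those tested) and 310 lower (1.6%), which is 30.7% of the direct calls. Of the 1720 direct calls that were not kept, 1714 had the same sign in the difference of changes. Both contrasts hold the same high-dose libraries, so a shared sign is largely built in and is not separate support. That second contrast uses 4 groups and its median standard error was 0.326 on the log2 scale, against 0.23 for the direct one. Kept genes differed by a median of 0.798 on the log2 scale directly, and 218 of them differed at least 2-fold by both measures, 133 higher and 85 lower. In 762 of the 763 the high-dose libraries of the 2 extracts did not overlap. This follows largely from the choice of genes by their direct difference in the same libraries. Over all tested genes 28.4% lay wholly higher in Guibi-tang and 23.9% wholly lower. At the border, CRY2, a repressor of the circadian clock, was the kept gene with the weakest support (difference of changes −0.44, edgeR adjusted p = 0.0494), and KIF3C, a kinesin motor, lay just outside (0.57, edgeR adjusted p = 0.0501).

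**Figure D1:**
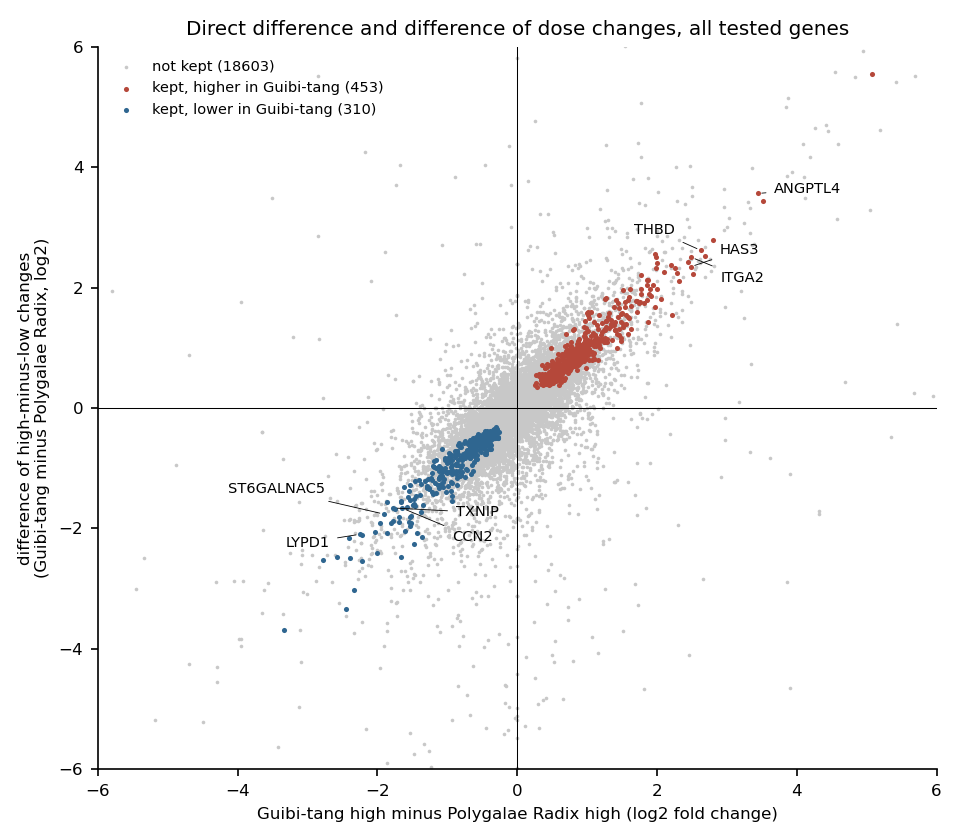
Each point is 1 of the 19366 tested genes, placed by its log2 fold change between the high doses (x axis, Guibi-tang minus Polygalae Radix) and by the difference of the high-minus-low changes (y axis, log2). The 453 genes kept higher and the 310 kept lower are coloured and lie in opposite corners; the 61 genes beyond 6 on either axis are not drawn and none of them was kept.

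HMOX1, which encodes the stress-inducible heme oxygenase and is a standard NRF2 target, was one of the 12 named genes that were higher in Guibi-tang. Its level was 620.3, 635 and 656 CPM in the Guibi-tang high-dose libraries and 131 and 135 CPM in those of Polygalae Radix. The vehicle libraries held 58.1 to 61.2 CPM, so both extracts lay above vehicle in every library and Guibi-tang lay furthest above it. The high doses differed by 2.26 on the log2 scale (SE 0.12, edgeR adjusted p = 6.3e-18), and the difference of changes was 2.33 (edgeR adjusted p = 4.8e-14). At the medium doses the levels were 148 to 185 CPM in Guibi-tang and 141 and 154 CPM in Polygalae Radix, which overlap. The gene lies at chr22:35380361-35394214.

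AKR1C1, an aldo-keto reductase of steroid and carbonyl metabolism and a further NRF2 target, moved in opposite directions in the 2 extracts. It stood at 57.2, 57.0 and 56.6 CPM under high-dose Guibi-tang and at 11.3 and 11.6 CPM under high-dose Polygalae Radix, with the vehicle libraries between them at a mean of 21.5 CPM. From low to high dose it rose by 1.18 in Guibi-tang and fell by 0.93 on the log2 scale in Polygalae Radix, both called. AKR1C1 has close paralogs, and the split of reads among them is uncertain.

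ANGPTL4 had the largest fold of the named genes. It encodes a secreted inhibitor of lipoprotein lipase that is induced by fatty acids and low oxygen, and it lies at chr19:8363289-8374373. Its level was 61.9, 62.0 and 63.4 CPM under high-dose Guibi-tang against 5.92 and 5.58 CPM under high-dose Polygalae Radix, a 10.8-fold difference (log2 3.44, SE 0.28, edgeR adjusted p = 3.7e-12). The vehicle libraries again lay between, at 11.8 to 16.3 CPM. ANGPTL4 rose by 2.41 (SE 0.22) from low to high dose of Guibi-tang and fell by 1.16 (SE 0.28) with Polygalae Radix. It was also higher at the medium dose of Guibi-tang, in libraries the rule did not use (1.23, edgeR adjusted p = 0.027).

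THBD encodes thrombomodulin, the cell-surface cofactor that turns thrombin towards protein C. Its level was 92.5, 93.9 and 91.4 CPM in the Guibi-tang high-dose libraries and 16.8 and 13.2 CPM in those of Polygalae Radix, with vehicle at 8.41 to 10.6 CPM. It rose with dose in both extracts, by 3.35 and 0.73 on the log2 scale, so the difference is one of size and not of direction. The direct difference was 2.62 (SE 0.20, edgeR adjusted p = 7.9e-13).

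A pair of the named genes act at the cell surface and in the matrix around it. ITGA2, the alpha subunit of a collagen-binding integrin, stood at 380.0, 336 and 330.4 CPM under high-dose Guibi-tang and at 59.4 and 65.0 CPM under high-dose Polygalae Radix. Its rise in Guibi-tang did not pass the test (0.77, edgeR adjusted p = 0.072) while its fall in Polygalae Radix did (−1.74, edgeR adjusted p = 0.0016). HAS3, a hyaluronan synthase, stood at 58.3, 60.3 and 59.9 CPM against 9.96 and 11.4 CPM, with vehicle at 23.7 to 24.3 CPM. HAS3 rose by 1.04 with Guibi-tang and fell by 1.31 with Polygalae Radix, and it was called higher at the medium dose too (0.69, edgeR adjusted p = 0.033). ITGA2 kept its call in 18 of 19 other analyses and lost it when the medium dose replaced the low dose (edgeR adjusted p = 0.0747).

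The secreted IGFBP1, which binds insulin-like growth factors, followed the same course as HAS3. It measured 16.0 CPM or more in each high-dose Guibi-tang library and 2.99 and 3.32 CPM under high-dose Polygalae Radix, on either side of the vehicle range of 9.33 to 10.7 CPM. It rose by 0.62 in the first extract and fell by 1.61 in the second, and both changes were called. IL1RL1, the receptor for interleukin-33, differed because it fell less. It measured 23.0, 20.2 and 23.3 CPM under high-dose Guibi-tang and 4.98 and 6.19 CPM under high-dose Polygalae Radix, all below the vehicle libraries at 27.3 to 30.0 CPM. Its own changes were −0.57 and −2.54, both called, and it was called higher with Guibi-tang at the medium dose as well (0.59, edgeR adjusted p = 0.031).

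The other 4 named genes in this direction encode membrane proteins. KCNC4, a voltage-gated potassium channel, measured 22.3 to 24.1 CPM against 5.83 and 5.00 CPM, and TM4SF19, a 4-span membrane protein of the tetraspanin-like family, 15.1 to 16.4 CPM against 4.54 and 4.23 CPM. LRRC8B, a subunit of volume-regulated anion channels, measured 11.8 ± 0.308 CPM (SD, n = 3) against 3.25 and 3.08 CPM, and TMEM171 14.3 to 16.7 CPM against 3.46 and 3.28 CPM. All 4 rose with the Guibi-tang dose, by 2.31 to 3.07 on the log2 scale, and KCNC4 and TM4SF19 rose with Polygalae Radix too. LRRC8B had a weaker call than the others (difference of changes 1.98, SE 0.54, edgeR adjusted p = 0.025) and lost it in 7 of 19 other analyses.

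**Figure D2:**
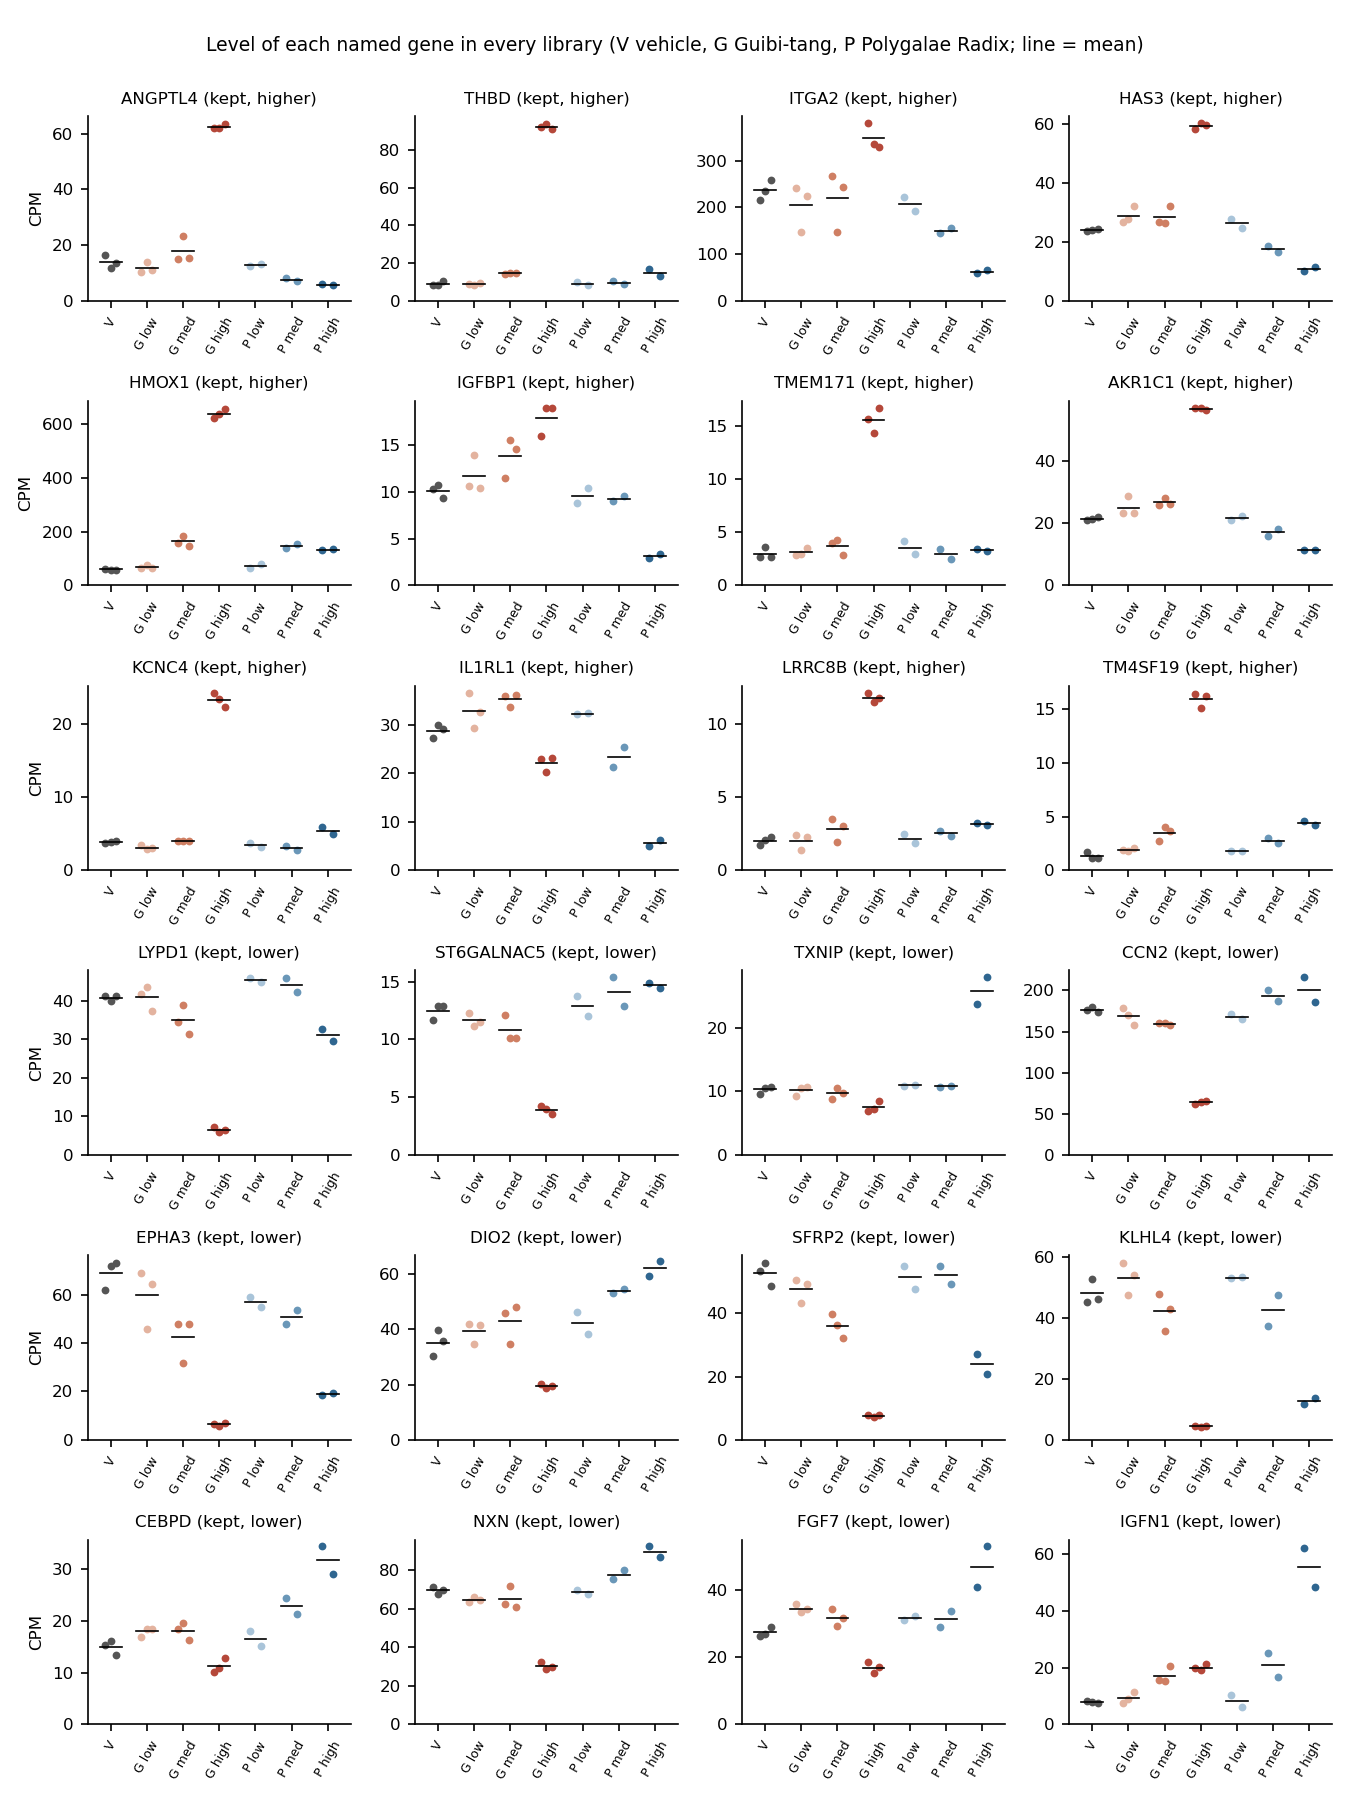
Each panel shows 1 of the 24 named genes, with its level in CPM on the y axis, starting at 0, and 1 point per library for vehicle and for the low, medium and high doses of each extract; the black line is the group mean. The 3 Guibi-tang and 2 Polygalae Radix high-dose points do not overlap in any panel because genes were named only where they do not. For ANGPTL4 they lie at 61.9 to 63.4 against 5.58 and 5.92 CPM.

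Among the 12 named genes that were lower in Guibi-tang, LYPD1, a membrane-anchored protein of the Ly6 family that modulates nicotinic receptors, differed most. It measured 7.33, 5.82 and 6.49 CPM under high-dose Guibi-tang and 32.6 and 29.5 CPM under high-dose Polygalae Radix, with vehicle at 39.8 to 41.3 CPM. The direct difference was −2.25 (SE 0.11, edgeR adjusted p = 6.3e-19). LYPD1 fell in both extracts, by 2.64 and 0.55. EPHA3, an ephrin receptor, SFRP2, a secreted WNT antagonist, and KLHL4, a Kelch-family protein, did the same: all 3 fell in both extracts and fell further in Guibi-tang. SFRP2 measured 7.24 to 7.88 CPM against 27.2 and 20.9 CPM, and KLHL4 4.21 to 4.64 CPM against 11.8 and 13.7 CPM. EPHA3 measured 5.76 to 6.72 CPM against 18.5 and 19.4 CPM, but its difference of changes (−1.65, SE 0.46, edgeR adjusted p = 0.029) was lost in 12 of 19 other analyses.

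TXNIP, the arrestin-like inhibitor of thioredoxin and of glucose uptake, rose with Polygalae Radix and fell with Guibi-tang. It measured 23.7 and 28.0 CPM under high-dose Polygalae Radix and 6.89, 7.31 and 8.45 CPM under high-dose Guibi-tang, with vehicle at 9.60 to 10.7 CPM. The own changes were 1.23 (edgeR adjusted p = 3.2e-09) and −0.43 (edgeR adjusted p = 0.0027). At low and medium doses of either extract TXNIP stayed between 8.74 and 11.1 CPM, and neither of these doses gave a called difference.

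Other genes with called changes in opposite directions were DIO2, CEBPD, NXN and FGF7. DIO2, the deiodinase that activates thyroid hormone and a known product of astrocytes, measured 20.3, 18.8 and 19.5 CPM under high-dose Guibi-tang and 59.5 and 64.7 CPM under high-dose Polygalae Radix. CEBPD, a stress-responsive transcription factor, measured 10.2 to 12.8 CPM against 34.5 and 29.1 CPM. NXN, a thioredoxin-family protein, measured 28.8 to 32.1 CPM against 92.5 and 86.6 CPM, and FGF7, a growth factor for epithelial cells, 15.3 to 18.6 CPM against 40.9 and 53.2 CPM. Vehicle lay between the extracts for all 4. Over all tested genes such pairs of called opposite changes were rare, with 36 genes up in Guibi-tang and down in Polygalae Radix and 33 the other way round.

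CCN2, also called CTGF, a secreted matricellular protein and a standard readout of YAP and TEAD activity, fell with Guibi-tang dose and was not called with Polygalae Radix dose. It measured 62.1, 64.1 and 66.0 CPM under high-dose Guibi-tang, 217 and 185 CPM under high-dose Polygalae Radix and 174 to 179.9 CPM in vehicle. The direct difference was −1.65 (SE 0.15, edgeR adjusted p = 4.4e-11), and the change with Polygalae Radix dose was 0.26 (edgeR adjusted p = 0.19). ST6GALNAC5, a sialyltransferase of brain gangliosides, had the same pattern, at 3.56 to 4.23 CPM against 14.9 and 14.5 CPM, with 11.7 to 12.9 CPM in vehicle. IGFN1, an immunoglobulin-domain protein of muscle, was the exception of the 12: it rose in both extracts, to 19.2 to 21.2 CPM in Guibi-tang and to 62.4 and 48.5 CPM in Polygalae Radix from a vehicle range of 7.47 to 8.29 CPM.

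The stretch upstream of the CCN2 start is shown because TEAD factors are known to bind copies of CATTCC there. It covers bases −200 to −61 from the RefSeq start, at chr6:131951433-131951572 on the minus strand of GRCh38.p14, 5′ to 3′ along the gene, with matches to GGAATG, the reverse complement of CATTCC, in capitals.
CCN2: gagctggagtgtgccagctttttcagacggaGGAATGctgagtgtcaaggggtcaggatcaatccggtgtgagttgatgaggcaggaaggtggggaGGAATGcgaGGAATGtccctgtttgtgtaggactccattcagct
The matches start at −169, −104 and −95. CATTCC on either strand occurred in 4928 of 35116 RefSeq promoter windows (14.0%), each from 250 bases before to 50 after a start. Among YAP and SRF list genes with a window, 3 of the 4 kept ones held it (CCN2, AJUBA and ACTA2), as did 5 of the 11 that were not kept (ANKRD1, AMOTL2, LATS2, AXL and VCL). A match is a description of the letters and not a measured binding site.

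Each extract alone changed a large share of the transcriptome from low to high dose: 9923 genes with Guibi-tang (51.2%, 23.8% up and 27.4% down) and 8899 with Polygalae Radix (46.0%, 20.8% up and 25.2% down). Much of this was common: 4123 genes fell in both, 77.6% of those that fell with Guibi-tang and 84.5% of those that fell with Polygalae Radix, and 3060 rose in both (66.4% and 76.1%). The kept genes therefore often differ in degree. Of the 453 kept higher, 198 (43.7%) fell in both extracts and fell less in Guibi-tang, 93 (20.5%) fell with Polygalae Radix and were not called with Guibi-tang, 89 (19.6%) rose with Guibi-tang and were not called with Polygalae Radix, 38 rose in both and 35 (7.73%) changed in opposite directions. Of the 310 kept lower, 100 (32.3%) fell with Guibi-tang and were not called with Polygalae Radix, 69 (22.3%) fell in both, 60 (19.4%) rose with Polygalae Radix and were not called with Guibi-tang, 48 (15.5%) rose in both and 33 (10.6%) changed in opposite directions.

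The extract of Aucklandiae Radix, at 160 against 6.4 µg/mL with 2 libraries each, shares no library with these comparisons, though its libraries belong to set 11 as do those of Polygalae Radix. From its low to its high dose 24.0% of tested genes were called: 10.5% rose and 13.4% fell. Of the 453 genes kept higher in Guibi-tang, 242 (53.4%) rose with Aucklandiae Radix and 37 (8.17%) fell, with a median log2 change of 0.44 against −0.01 over all tested genes. Of the 310 genes kept lower, 260 (83.9%) fell with Aucklandiae Radix and 5 (1.61%) rose, with a median of −1.03. Of the 12 named genes higher in Guibi-tang, 11 rose with Aucklandiae Radix, all but IL1RL1 (−0.22, edgeR adjusted p = 0.26). Of the 12 named genes lower, 11 fell, all but IGFN1 (−0.22, edgeR adjusted p = 0.6). The changes were often larger than with Guibi-tang: ANGPTL4 reached 273 and 291 CPM, HMOX1 1294 and 1238 CPM and ITGA2 1141 and 1028 CPM under high-dose Aucklandiae Radix, above every Guibi-tang library. DIO2 fell to 2.39 and 2.71 CPM and TXNIP to 1.45 and 1.25 CPM. How much of either root the decoction holds is not given in the sources used here, and the part of any ingredient in these values was not tested.

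**Figure D3:**
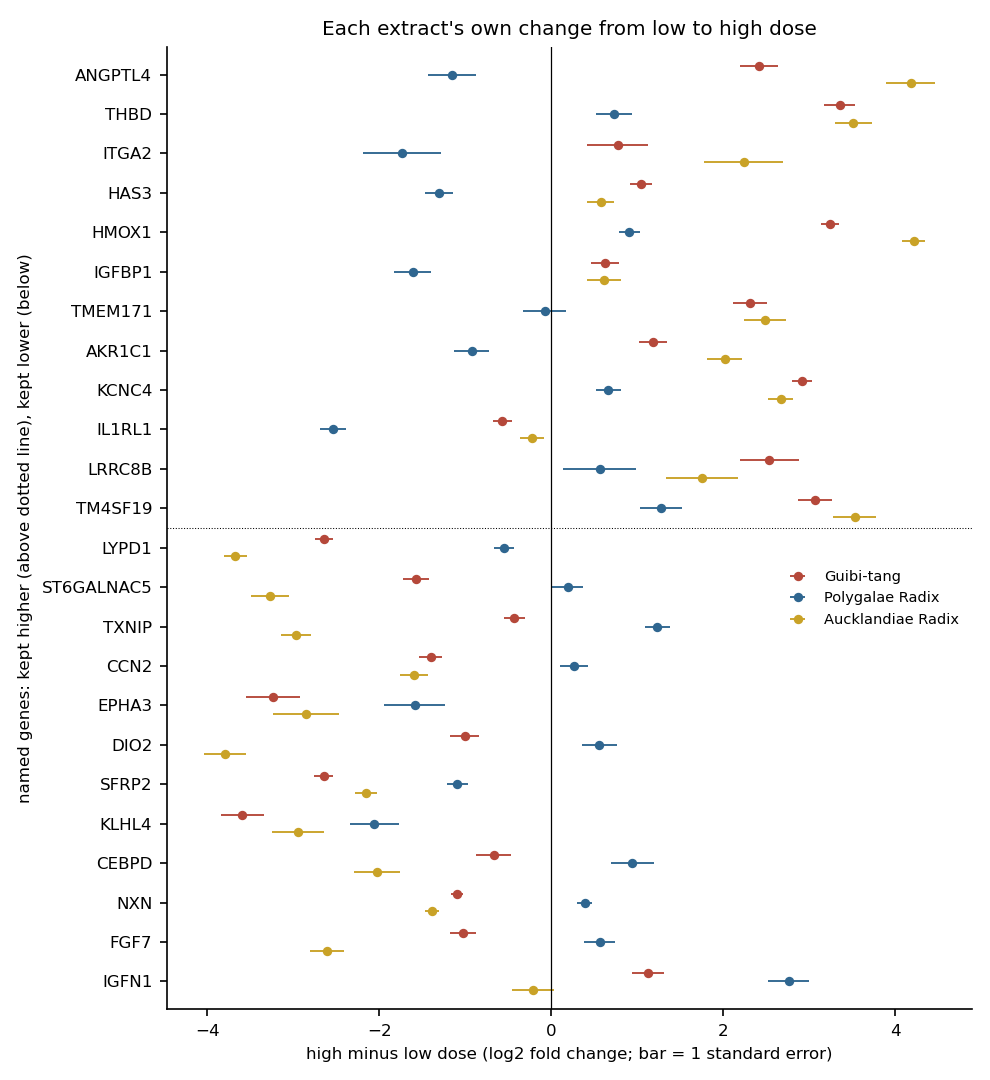
Points give the log2 change from low to high dose of each of the 24 named genes (y axis) in Guibi-tang, Polygalae Radix and Aucklandiae Radix, with bars of 1 standard error. For ANGPTL4 the Polygalae Radix point lies at −1.16 while the other 2 extracts lie above 0, and for TXNIP it lies at 1.23 while the other 2 lie below 0.

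Gene lists group genes by known function, and a list is described by how many tested members were called and kept beside the shares over all genes. Over all tested genes the median direct difference was 0.02 on the log2 scale, 6.96% were called higher and 2.34% were kept higher. Of 22 NRF2 targets, 14 were called higher in Guibi-tang and 0 lower, with a median of 0.55, and 6 were kept: HMOX1, AKR1C1, PIR, GCLM, PGD and SRXN1. GCLM, the regulatory subunit of the enzyme that starts glutathione synthesis, rose with Guibi-tang and fell with Polygalae Radix (0.45 and −0.34), and SRXN1, which repairs oxidised peroxiredoxins, rose in both (1.51 and 1.04). PIR, an iron-binding nuclear protein, and PGD, an enzyme of the pentose phosphate pathway, fell in both and fell less in Guibi-tang (PGD −1.02 and −1.77). NQO1 and TXNRD1, classic members of the list, were higher directly (0.84 and 0.40) but their differences of changes were not called (0.44 and 0.15). From low to high dose 11 of the 22 rose and 10 fell with Guibi-tang, and 9 rose and 13 fell with Polygalae Radix, so the list moved both ways in each extract. Over all tested genes 23.8% rose and 27.4% fell with Guibi-tang, and 20.8% rose and 25.2% fell with Polygalae Radix.

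Of 23 genes of hypoxia response and glycolysis, 13 were called higher in Guibi-tang and 0 lower, with a median of 0.60, and 9 were kept: ALDOC, BNIP3, LDHA, NDRG1, P4HA1, P4HA2, PFKP, SLC2A1 and VEGFA. Of the 23, 16 fell with dose in Guibi-tang and 17 in Polygalae Radix, against 27.4% and 25.2% of all tested genes. LDHA, the muscle-type lactate dehydrogenase subunit, fell by 2.44 and by 3.25 on the log2 scale. SLC2A1, the glucose transporter GLUT1, measured 172, 169.7 and 171 CPM under high-dose Guibi-tang against 109 and 117 CPM under high-dose Polygalae Radix, both below the vehicle range of 189 to 212 CPM. VEGFA, the vascular growth factor, went the other way from vehicle: it measured 396, 409 and 422 CPM against 295 and 259 CPM, with vehicle at 276 to 295 CPM, and its change was called in Guibi-tang alone of the 2 (0.48, edgeR adjusted p = 3.6e-05).

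Of 18 chaperones and unfolded protein response genes of the endoplasmic reticulum, 10 were called higher and 0 lower, with a median of 0.52, and 6 were kept: HSPA5, HSP90B1, PDIA4, PDIA6, DNAJB9 and DNAJB11. Of these 6, DNAJB9 alone rose, in both extracts (1.58 and 0.95); the other 5 fell in both and fell less in Guibi-tang. HSPA5, the master chaperone BiP, measured 751, 756 and 737 CPM under high-dose Guibi-tang and 398 and 394 CPM under high-dose Polygalae Radix, all far below vehicle at 3416 to 3537 CPM. Its own changes were −2.12 and −2.96. HSP90B1 fell by 1.90 and 2.50, and PDIA6, a disulphide isomerase, by 1.10 and 1.58. With Aucklandiae Radix HSPA5 was not called (0.15, edgeR adjusted p = 0.43).

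Upstream stretches of 2 of these chaperones are shown because genes of the unfolded protein response are known to share the endoplasmic reticulum stress element. They run 5′ to 3′ along the gene in GRCh38.p14 (RefSeq), both on the minus strand, with the fixed letters of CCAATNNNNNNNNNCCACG in capitals. HSPA5 is at chr9:125241384-125241543, bases −200 to −41 from its start, and PDIA6 at chr2:10812846-10812985, bases −200 to −61 from one of its 2 starts.
HSPA5: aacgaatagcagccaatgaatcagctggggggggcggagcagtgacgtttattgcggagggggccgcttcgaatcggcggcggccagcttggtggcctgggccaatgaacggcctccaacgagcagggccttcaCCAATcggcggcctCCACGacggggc
PDIA6: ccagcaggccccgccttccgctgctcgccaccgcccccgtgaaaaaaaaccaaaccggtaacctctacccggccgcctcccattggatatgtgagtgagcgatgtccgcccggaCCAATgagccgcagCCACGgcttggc
The element starts at −66 in HSPA5 and at −86 in PDIA6, and on either strand it occurred in 27 of 35116 windows (0.0769%). It was also in the window of HSP90B1 and not in those of PDIA4, DNAJB9 and DNAJB11, so 3 of the 6 kept genes held it, as did 4 of the 11 list genes with a window that were not kept. The window covers 250 bases before and 50 after each start, and no match says only that these letters are not in it.

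The YAP and SRF list, with genes of the contractile cytoskeleton, and the list of the G2 and M phases had members called lower in Guibi-tang and 0 called higher; over all tested genes 5.86% were called lower and 1.6% kept lower. Of 18 YAP and SRF targets, 8 were called lower and 0 higher, with a median of −0.34, and 5 were kept: CCN1, CCN2, ACTA2, AJUBA and CNN2. CCN1, a matricellular protein related to CCN2, measured 221, 222 and 243 CPM under high-dose Guibi-tang and 582 and 562 CPM under high-dose Polygalae Radix, with vehicle at 508 to 526 CPM. ACTA2, smooth muscle actin, fell in both extracts (−2.46 and −1.70). Of 23 genes of the G2 and M phases, 12 were called lower and 0 higher, with a median of −0.40, and 3 were kept: AURKA, CCNB2 and PRC1. AURKA, a mitotic kinase, measured 77.7, 73.7 and 82.4 CPM against 125 and 129 CPM, with vehicle at 124 to 129 CPM; its fall was called in Guibi-tang (−0.76) and not in Polygalae Radix (−0.16, edgeR adjusted p = 0.2). From low to high dose 27.4% of all tested genes fell with Guibi-tang, 25.2% with Polygalae Radix and 13.4% with Aucklandiae Radix. Of the 23 genes of the G2 and M phases, 22 fell with Guibi-tang, 17 with Polygalae Radix and all 23 with Aucklandiae Radix. In bulk RNA fewer cells in mitosis and less of these transcripts per cell cannot be told apart. Of 22 DNA replication genes, 2 were called higher and 0 lower, and 1 (POLE2) was kept.

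Inflammatory and growth signalling lists were divided, while over all tested genes 2.34% were kept higher and 1.6% lower. Of 19 NF-kB and inflammatory genes, 3 were kept higher (CXCL8, IL1A and IL1B) and 2 lower (ICAM1 and TNFAIP2), with a median of −0.10 directly and 0.05 in the difference of changes, which differ in sign. CXCL8, a neutrophil chemokine, measured 9.52, 10.1 and 9.73 CPM against 3.57 and 5.21 CPM, with vehicle at 2.96 to 4.00 CPM. IL1B measured 9.73, 7.09 and 9.02 CPM against 3.22 and 3.73 CPM. ICAM1, an adhesion molecule for leukocytes, differed by −1.17 (SE 0.08). Of 22 immediate early and ERK feedback genes, 4 were kept higher, the feedback inhibitors DUSP1, DUSP5, DUSP6 and SPRY2, and 2 lower, the transcription factors FOSB and JUNB; its medians also differed in sign (−0.06 and 0.10). DUSP6, the phosphatase of ERK, measured 61.8, 54.3 and 55.2 CPM against 29.8 and 33.8 CPM, with vehicle at 21.7 to 24.9 CPM. Of 10 glucocorticoid targets, 2 were called higher directly and 5 lower, with a median of −0.28, against 6.96% and 5.86% over all tested genes. Of the 10, 2 were kept higher and 3 lower.

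Other lists with kept members were the lysosome and autophagy list (4 of 23 higher, 0 lower), the ATF4 list (3 of 24, 0), collagens and matrix (2 of 26, 0), lipid droplet and PPAR targets (2 of 9, 0), cholesterol synthesis (0, 2 of 25), fatty acid synthesis (1 of 11, 0), tubulins (1 of 11, 0), heat shock chaperones (0, 1 of 17), LXR targets (0, 1 of 8) and interferon response (0, 1 of 22). Over all tested genes 2.34% were kept higher and 1.6% lower, so 1 kept member is not read as a result about its list. Of the 22 interferon response genes, 6 were called lower directly and 1 higher, with a median of −0.35. Over all tested genes 5.86% were called lower and 6.96% higher. The 2 PPAR targets were ANGPTL4 and PLIN2, which coats lipid droplets and differed by 1.60 (SE 0.10). In each of the 30 lists, the members kept in 1 direction were outnumbered by the rest of the tested members. All 26 members of the collagens and matrix list fell with Guibi-tang and with Polygalae Radix, against 27.4% and 25.2% of all tested genes. No member was kept among 30 ribosomal proteins, 20 p53 targets, 6 AhR targets and 6 genes of the metallothionein and zinc list. In that last list MT1G, MT1H and MT1M were not tested, the medians were 0.86 directly and 0.72 in the difference of changes, and MT1X and MT2A were called higher directly. Their differences of changes were about as large but not called: MT2A, a zinc-binding metallothionein, gave 1.12 directly (edgeR adjusted p = 0.00524) and 1.25 in the difference of changes (SE 0.39, edgeR adjusted p = 0.0624), and MT1X 0.98 and 0.95 (SE 0.38, edgeR adjusted p = 0.196).

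Proteasome subunits and mitochondrially encoded genes had members called directly and 0 kept, but their medians behaved differently. Between the low doses the median difference was 0.12 for the proteasome list and −0.77 for the mitochondrial list. Of 25 proteasome subunits 12 were called higher directly and 0 were kept, with medians of 0.46 directly and 0.36 in the difference of changes. Of 13 mitochondrially encoded genes 9 were called lower directly and 0 were kept, and here the medians were −0.90 and −0.11. Their summed level was 48660 to 61390 CPM under high-dose Guibi-tang and 137400 and 71950 CPM under high-dose Polygalae Radix, but already 44870 to 61350 CPM and 111800 and 67400 CPM at the low doses. The mean share of raw counts taken by mitochondrially encoded genes rose from 6.61% at the low to 8.79% at the high dose of Guibi-tang (n = 3 each). With Polygalae Radix it rose from 10.1% to 15.5% (n = 2 each). None of the 13 was called from low to high dose in either extract, against 51.2% of all tested genes with Guibi-tang and 46.0% with Polygalae Radix. Without these 13 genes in the scaling, 755 genes were kept, 749 of them as above.

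**Figure D4:**
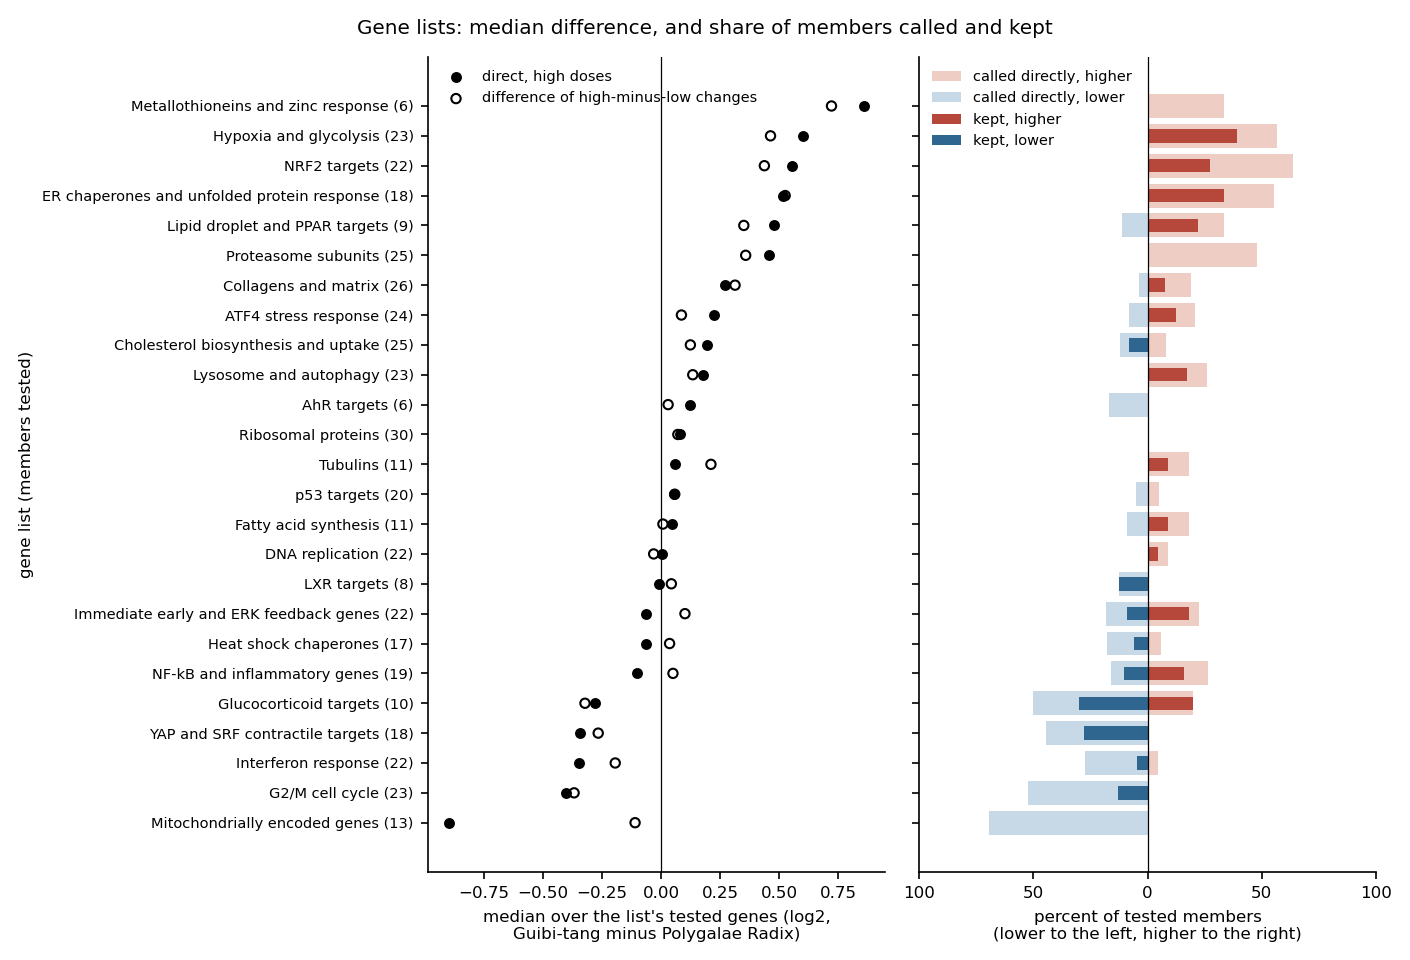
The left panel gives the median log2 difference of each pathway list directly (filled) and for the difference of changes (open), with the number of tested members in brackets; the right panel gives the percent of members called directly (pale) and kept (dark), lower to the left and higher to the right. Hypoxia and glycolysis, NRF2 targets and chaperones of the endoplasmic reticulum lie to the right with direct medians of 0.52 to 0.60, and the mitochondrially encoded genes have no dark bar.

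Over all tested genes 12.8% were called directly, 2.34% were kept higher and 1.6% kept lower. Too few markers of other cell types were tested to set their counts apart from these shares. None of the 7 tested neuron markers and the 4 tested endothelial markers was called, and 1 of 7 epithelial markers was called and not kept. Of 4 tested leukocyte markers 1 was kept, CD68, a lysosomal membrane protein that other cells express too. The summed level of the 4 was 104 to 133 CPM under high-dose Guibi-tang, 71.4 and 47.7 CPM under high-dose Polygalae Radix and 194 to 205 CPM in vehicle, while CD3D, CD3E, MS4A1, NKG7 and ITGAM were among those too low to be tested. Of the 10 tested astrocyte and glioma markers, VIM and PTN were kept higher and CHI3L1 and SLC1A3 lower; CHI3L1, a secreted glycoprotein of reactive astrocytes, measured 124, 113 and 140.4 CPM against 304 and 275 CPM, with vehicle at 731 to 811 CPM.

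Few genes were called at the lower doses. Between the low doses 0 genes were called by edgeR, with 1009 (5.21%) at an unadjusted p under 0.05, and DESeq2 called 2, with 990 at an unadjusted p under 0.05. Between the medium doses, 100 µg/mL of Guibi-tang and 6 µg/mL of Polygalae Radix in libraries that the rule did not use, 32 genes were called (0.165%), 25 higher (0.129%) and 7 lower (0.0361%). Of the 453 genes kept higher, 16 were called higher at the medium dose and 0 lower, and 86.8% had a positive fold change, against 52.8% of all tested genes. Of the 310 genes kept lower, 3 were called lower and 1 higher, and 21.9% had a positive fold change. The median differences were small, 0.18 and −0.12 on the log2 scale.

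With the medium in place of the low dose as reference, the difference of changes was called for 309 genes (1.6%), 173 higher (0.893%) and 136 lower (0.702%). By this reference 173 and 132 genes were kept, and they included 275 of the 763 (36.0%). The counts depend on single libraries of Polygalae Radix, of which there were 2 a dose. Without its high-dose replicate 2, 285 genes were kept higher and 170 lower, without its low-dose replicate 3, 290 and 171, and without its low-dose replicate 2, 202 lower. Genes with longer annotated transcripts were relatively more abundant in the high-dose libraries of both extracts. A slope of log2 CPM, relative to the vehicle mean, on log2 median transcript length was fitted over 10340 genes with mean log2 CPM of at least 3. It was 0.108 to 0.117 in Guibi-tang and 0.128 to 0.131 in Polygalae Radix, and −0.0981 to −0.0131 at their low doses. With that slope as a covariate 3289 genes were kept, including all 763. The slope was computed from the same values that were then tested and it differs by dose, so this is not separate support for the 763.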

How the data were processed

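RNA of SW1783 cells was sequenced as directional paired-end messenger RNA libraries. The deposited values are expected counts per gene without normalization; the tools in the submitters' processing notes are RSEM (1.3.3), STAR (2.7.3a), Trim Galore (0.6.5) and FastQC (0.11.9), on GRCh38, with no roles. The annotation release and strand setting are not given in the sources used here, so overlapping and antisense genes are uncertain. All 60 libraries (19031094 to 37686975 counts) were mapped to groups by title. Expected counts were rounded and fitted with edgeR 4.0.16 (TMM, quasi-likelihood, robust, 25 group means, 35 residual degrees of freedom) after a low-count filter (minimum count 10, total 15), leaving 19366 of 60675 genes; a call is a two-sided Benjamini-Hochberg adjusted p under 0.05 over all of them. The edgeR fit and the keeping rule were tested on simulated counts with known fold changes. Gene positions come from GENCODE 29, promoter windows from RefSeq.

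Named genes were the 12 kept in each direction with the largest smaller of both absolute log2 fold changes, among those with a symbol, a mean log2 CPM of at least 2 in the high-dose libraries and no overlap between extracts; other genes named from lists were chosen after their values were seen. The members, the 25 pathway lists and the 5 marker lists were chosen with earlier results of these data known. Alternatives were DESeq2 1.42.0, RLE scaling, no low-count filter, the compared groups alone, a replicate block, the medium dose as reference and leaving out each library; pooled Okbyeongpung-san doses, a transcript length covariate and removal of mitochondrially encoded genes were added after seeing the data. Same-numbered libraries were checked for shared deviations. Within the high- and low-dose groups of Guibi-tang and Polygalae Radix, all 8 pairs of replicates differed by more than counting error, to unequal degrees. The spread over counting error was 2.75 to 3.48 in Guibi-tang high and 12.8 in Polygalae Radix high. In Guibi-tang low it was 17.8 and 13.7 for pairs with replicate 2 and 2.82 without it, and in Polygalae Radix low 7.23. Other groups were not checked for this.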

Additional observations from a re-analysis of the deposited data

Results flagged for a closer look

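For 9 of the 24 named genes both extracts' changes from low to high dose were called and had opposite signs, and the difference of the changes was itself tested (edgeR, adjusted over all genes). Up with Guibi-tang and down with Polygalae Radix were ANGPTL4, with a difference of 3.57 on the log2 scale, HAS3 with 2.35, IGFBP1 with 2.23 and AKR1C1 with 2.11. Down with Guibi-tang and up with Polygalae Radix were TXNIP with −1.66, DIO2 with −1.56, CEBPD with −1.61, NXN with −1.48 and FGF7 with −1.59. These genes were kept through that same difference, so its size is not separate support.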

How the results depend on the processing

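All 763 kept genes retained their sign wherever they were kept again, and no setting kept a gene in the opposite direction. Every setting reused the same high-dose libraries, or all but 1 of them. A reversal could thus hardly occur, and its absence is not separate support. With RLE scaling 772 genes were kept (758 shared), with DESeq2 988 (744 shared) and with the Okbyeongpung-san doses pooled 605 (604 shared). Without the low-count filter the direct calls were 885 higher and 614 lower, and the calls for the difference of changes 220 and 137. There 217 and 135 genes were kept (352 shared, 46.1% of the 763). With the compared groups alone the direct calls were 2661 and 2447, and 903 genes were kept (572 shared). With the medium dose as reference the difference of changes was called for 173 genes higher and 136 lower. There 173 and 132 were kept (275 shared, 36.0% of the 763). With the length slope as a covariate the counts were 3751 and 2749, 2226 and 1413, and 2052 and 1237. Leaving out each library in turn gave 624 to 1050 direct calls higher and 470 to 983 lower, 301 to 431 and 181 to 285 for the difference of changes, and 285 to 423 and 170 to 267 kept, each from fewer libraries; for the other settings the cause was not tested. Between Guibi-tang high and low, the correlation of deviations was 0.386, 0.306 and 0.0437 for same-numbered libraries and −0.377 to 0.0936 for other-numbered ones. For Polygalae Radix these were 0.381 and −0.381, and with 2 libraries a group the second value follows from the first. Across extracts same-numbered libraries gave −0.0769 and −0.341. The numbers thus went in part with shared deviations within each extract and not across extracts. The main fit used no pairing, and with a replicate block 720 genes were kept (691 shared). Of the 24 named genes 19 were kept in all 19 settings; the exceptions were ITGA2, TM4SF19 and CEBPD in 1 setting each, LRRC8B in 7 and EPHA3 in 12, with adjusted p up to 0.0747, 0.0663, 0.0517, 0.15 and 0.171. With 2 libraries of Polygalae Radix a dose, the median standard error of 0.326 limits which differences of changes can be called, and genes under the count minimum were not tested.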

Other observations

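Some gene families outside the lists held many kept members. They were picked after their values were seen, so they are described and not tested. Over all tested genes 6.96% were called higher and 2.34% kept higher in Guibi-tang, and 5.86% were called lower and 1.6% kept lower. Of 12 regulators of plasminogen and thrombin, 11 were called higher in Guibi-tang at the high dose and 9 were kept, among them PLAT, PLAUR, PLGRKT, PROCR, SERPINB2, TFPI, TFPI2 and THBD. Most fell less rather than rose. PLAT, the tissue plasminogen activator, fell by 1.06 in Guibi-tang and by 2.96 in Polygalae Radix, and SERPINB2, an inhibitor of plasminogen activators, by 0.80 and 2.78. PLAUR, the urokinase receptor, rose by 0.83 with the first and fell by 0.49 with the second. F3, tissue factor, was the member that was not called (−0.08, edgeR adjusted p = 0.85).

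Beside the same 2.34% kept higher and 1.6% kept lower over all genes, of 7 tested EGF receptor ligands 3 were kept higher (EREG, EPGN and HBEGF), and of 3 hyaluronan synthases HAS2 and HAS3. Of 7 interleukin-1 family members and receptors 4 were kept higher (IL1A, IL1B, IL33 and IL1RL1), which include interleukin-33 and its receptor. IL33 measured 16.2, 13.3 and 13.2 CPM under high-dose Guibi-tang and 8.03 and 8.16 CPM under high-dose Polygalae Radix, with 6.15 to 7.05 CPM in vehicle. IL33 did not rise with Aucklandiae Radix (−0.42, edgeR adjusted p = 0.1), unlike most genes kept higher. Of 6 CCN family members, CCN1, CCN2 and CCN5 were kept lower and 0 higher. Of 10 annexins 5 were kept higher, and all 10 fell from low to high dose in both extracts. Over all tested genes 27.4% fell with Guibi-tang and 25.2% with Polygalae Radix.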
